A study of Mus musculus with 16 samples.

Results

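Vcam1, Icam1, Cxcl12, Cxcr4 and Ackr3 were followed as a group of adhesion and chemokine genes in mouse outflow valves. They were taken by symbol from the 13964 genes of the deposited expression table, and all 5 were present. Valve tissue had been cut by laser from embryonic hearts at E14.5, and its RNA was amplified and sequenced. Mutant embryos were Jag1flox;Nkx2.5-Cre, which carry a floxed allele of the Notch ligand gene Jag1 and a Cre recombinase under Nkx2.5 control, and control embryos were labelled WT, both on C57BL/6. Mutant aortic, wild-type aortic, mutant pulmonary and wild-type pulmonary valves gave 4 libraries each, 16 in all, from 5 litters. Cre acts where the cardiac gene Nkx2-5 is or was active and leaves Jag1 intact in other cells of the dissected tissue. The labels name no allele for the WT embryos. Each valve was its own library batch, so a valve difference cannot be told apart from a batch difference. The labels do not say whether tissue was pooled over embryos.

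VCAM1 and ICAM1 are immunoglobulin-family proteins of the cell surface. VCAM1 binds the integrin that pairs the alpha 4 and beta 1 chains, ICAM1 binds beta 2 integrins of leukocytes, and both are known for holding white blood cells to activated endothelium. VCAM1 is also needed in the embryo for the placenta and the epicardium. CXCL12 is a secreted chemokine that signals through the G-protein-coupled receptor CXCR4. ACKR3 binds the same ligand, recruits arrestin and removes the ligand from the surroundings. Mouse embryos that lack Cxcl12 or Cxcr4 have ventricular septal and vascular defects, and loss of Ackr3 gives thickened semilunar valves.

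Vcam1 (ENSMUSG00000027962) lies on chromosome 3 from 116109949 to 116129688 on the minus strand, in GRCm38 coordinates of GENCODE M21. Icam1 (ENSMUSG00000037405) lies on chromosome 9 from 21015985 to 21028817 on the plus strand, and Cxcl12 (ENSMUSG00000061353) on chromosome 6 from 117168535 to 117181367, also on the plus strand. The 2 receptor genes share chromosome 1, with Cxcr4 (ENSMUSG00000045382) from 128588199 to 128592293 on the minus strand and Ackr3 (ENSMUSG00000044337) from 90203980 to 90216751 on the plus strand. All 5 are annotated as protein-coding.

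Promoter sequence from RefSeq (GRCm38.p6) was matched for 4 of the 5 genes, and the 3 chemokine-axis genes are shown because their levels varied most between libraries. Each line gives the 200 bases before the annotated start, 5′ to 3′ on the gene's own strand. Capitals mark TGGGAA, the core site of the Notch partner RBPJ, and the GC box GGGCGG, each searched on both strands.
Cxcl12, chr6:117168335-117168534, plus strand: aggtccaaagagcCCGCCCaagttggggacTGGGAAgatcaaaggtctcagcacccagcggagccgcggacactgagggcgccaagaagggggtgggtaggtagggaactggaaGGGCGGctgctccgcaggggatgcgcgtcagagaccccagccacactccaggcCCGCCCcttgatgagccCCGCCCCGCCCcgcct
Cxcr4, chr1:128592300-128592499, minus strand: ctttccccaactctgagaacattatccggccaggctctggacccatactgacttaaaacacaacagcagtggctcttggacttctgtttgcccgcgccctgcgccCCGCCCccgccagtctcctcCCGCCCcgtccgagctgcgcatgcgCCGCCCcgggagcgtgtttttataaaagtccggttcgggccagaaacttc
Ackr3, chr1:90203780-90203979, plus strand: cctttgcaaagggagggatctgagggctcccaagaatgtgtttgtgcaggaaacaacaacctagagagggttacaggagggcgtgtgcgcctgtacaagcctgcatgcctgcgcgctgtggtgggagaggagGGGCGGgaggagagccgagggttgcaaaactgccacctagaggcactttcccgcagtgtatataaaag
The RBPJ core occurred 1 time in the Cxcl12 window, 170 to 165 bases before the start, and 17.3% of 32851 promoter windows of this length hold it. It was not found in the Cxcr4, Ackr3 or Icam1 windows. GC boxes, present in 31.0% of windows, occurred 5 times in Cxcl12, where the last 2 overlap by 1 base, 3 times in Cxcr4 and 1 time each in Ackr3 and Icam1. The hypoxia response core ACGTG (in 14.0% of windows) and the NF-kB pattern GGGNNTTCC (in 4.13%) were searched on both strands as well. Neither matched in any of the 4 windows. Only this form of the NF-kB motif was searched, so its absence does not show that a window lacks an NF-kB site. Related spellings, such as tggaaattcc in the Icam1 window, do not match it. A match of letters is a description of the window and not a binding site.

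Values below are normalised counts (reads scaled to library depth by trimmed means), and depth was 4560219 to 8684366 recovered reads per library. Differences are mutant minus wild type on log2(normalised count + 1) unless another pair is named, so they understate the change of low genes. They come from 1 limma fit over 13963 genes and all 16 libraries, called at a Benjamini-Hochberg adjusted p under 0.05. Intervals are 95%, two-sided. Jag1, which checks the labels, averaged 9.38 ± 2.39 in mutant and 33.3 ± 17.1 in wild-type aortic libraries, and 5.68 ± 4.63 in mutant and 18.5 ± 5.34 in wild-type pulmonary libraries (SD, n = 4 each). It was lower in the mutant of all 8 litter pairs, by log2 differences of -2.55 to -0.13. The smallest was in pulmonary pair 1, where Jag1 hardly differed (12.4 in the mutant and 13.6 in wild type). Within a valve, mutant and wild-type libraries of 1 number share a litter. The 8 pairs came from 5 litters, 3 of which gave a pair in each valve, so the pairs are not independent.

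The libraries held unequal amounts of other tissue, and values of some of it stand beside the results below. All 14 cushion mesenchyme markers and all 14 endothelial markers were detected in every group. The 14 skeletal muscle markers gave summed levels of 6.12 to 73.3 normalised counts in 6 libraries, called muscle-poor here (mutant aortic 4, wild-type aortic 2 and 4, mutant pulmonary 4, wild-type pulmonary 2 and 4) and of 826 to 2758 in the 10 muscle-rich others. The summed endothelial markers were 1769 to 3341 in the muscle-poor and 330.2 to 1794 in the muscle-rich libraries. Tbx20, a transcription factor of valve cushions, was 1032 to 1744 in those 6 libraries. Of the other 10 libraries, 5 had 549 to 976 and 5 had 98.0 to 123. In bulk tissue, fewer cells of a type and less RNA per cell cannot be told apart.

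The 5 genes spanned a wide range of levels. Per kilobase of merged exon length, the mean over 16 libraries was 18.2 for the scavenger receptor gene Ackr3, 9.14 for Cxcr4, 8.92 for Cxcl12, 3.29 for Vcam1 and 0.219 for Icam1, in normalised counts per kilobase. Ackr3 was above Cxcr4 in 15 of 16 libraries and above Vcam1 in all 16. Cxcl12 was above Cxcr4 in 9 libraries and below it in 7, so these neighbours in the order did not separate. Icam1 was the lowest of the 5 in every library. Merged exons cover all isoforms, which lowers the figure for a gene whose short isoforms prevail. The spread within groups also differed between the genes. Its pooled SD was 0.50 on the log2 scale for Vcam1, at percentile 40.9 of all genes, and 1.05 for Cxcl12, 1.10 for Cxcr4 and 1.37 for Ackr3, at percentiles 88.1, 90.1 and 95.7. The median gene had 0.57.

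**Figure D1:**
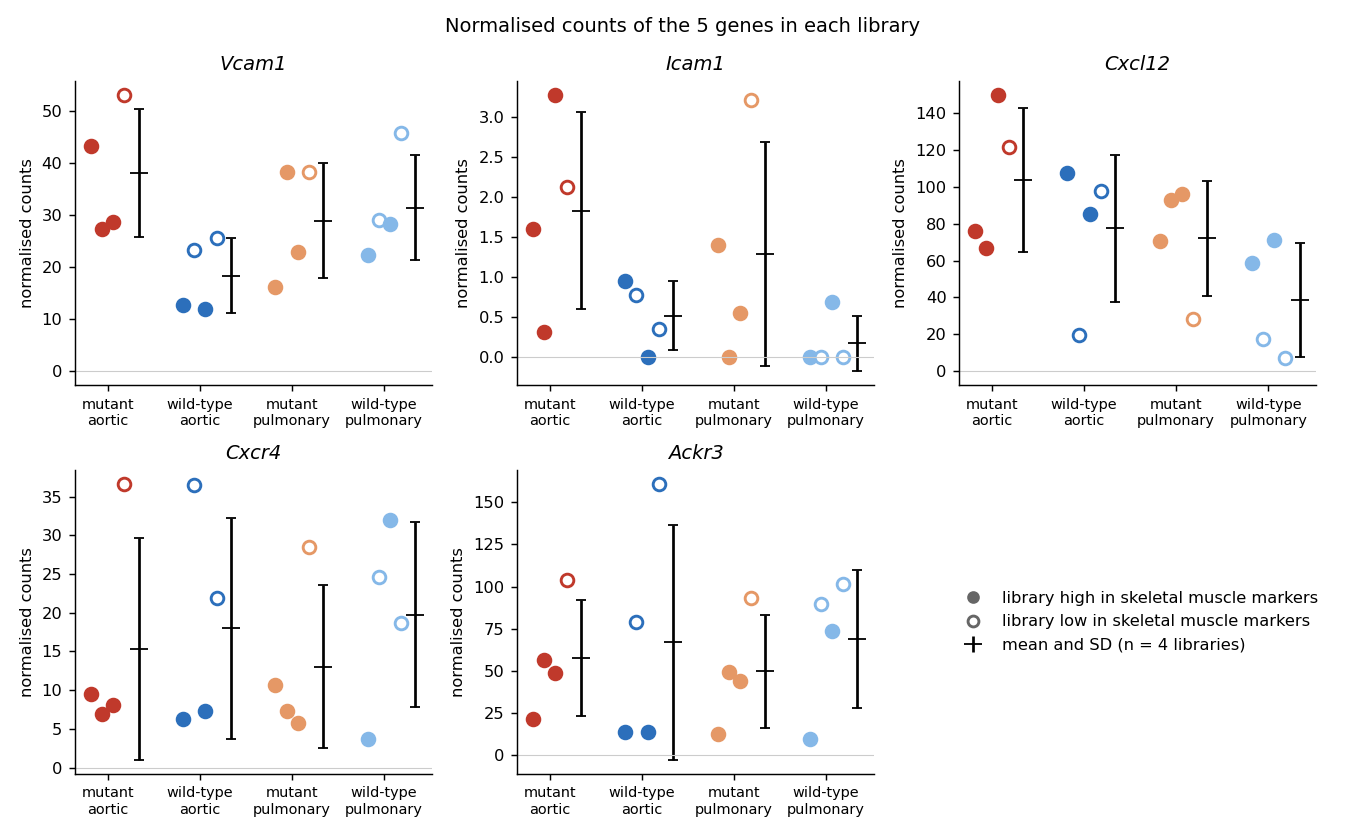
Normalised counts of the 5 genes in every library, by group (mutant left of wild type within each valve). Open points are the 6 muscle-poor libraries, and bars give mean and SD of 4 libraries. Vcam1 was 27.3 to 53.1 in mutant and 11.9 to 25.6 in wild-type aortic libraries, and the open points of Ackr3 lie above all filled ones.

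Vcam1, the adhesion molecule that binds alpha 4 integrins, was higher in every mutant aortic library than in any wild-type aortic library. It was 43.2, 27.3, 28.6 and 53.1 in mutant aortic libraries 1 to 4, against 12.6, 23.3, 11.9 and 25.6 in wild-type aortic libraries 1 to 4. The means were 38.0 ± 12.3 in mutants and 18.4 ± 7.13 in wild type (SD, n = 4 each), a difference of 1.03 (SE 0.35, interval 0.29 to 1.78). The mutant was higher in 4 of 4 litter pairs, by 0.22 to 1.70. This difference was known when the gene was listed, so it is given as a description with no p. Of all tested genes, 0.759% had every mutant aortic library above every wild-type one, and 5.99% were higher in the mutant of all 4 aortic pairs.

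Since the groups do not overlap, any subset of libraries has the same direction. Among muscle-rich aortic libraries, Vcam1 was 27.3 to 43.2 in 3 mutants and 11.9 to 12.6 in 2 wild types. These libraries were unlike in the cushion gene Tbx20, at 102, 613 and 763 in mutants 1 to 3. In wild types 1 and 3 Tbx20 was 101 and 123. The 14 cushion mesenchyme markers placed mutant 1 differently by measure. Their mean on the log2 scale was 7.06 in mutant 1 and 7.09 in mutant 3, against 6.13 and 6.19 in wild types 1 and 3. Their summed level was 3139 in mutant 1 and 6706 in mutant 3, against 2677 and 2565 in those wild types. Whether mutant 1 matched the wild types in cushion content was not tested. Among muscle-poor aortic libraries Vcam1 was 53.1 in 1 mutant and 23.3 and 25.6 in 2 wild types. Of the endothelial markers, 11 of 14 had an aortic difference above 0, with a median of 0.52 beside 0.02 for all genes, and none was called. Their summed level was 555 to 3341 in mutant aortic and 400 to 2465 in wild-type aortic libraries. With the endothelial mean as a covariate the Vcam1 difference was 0.91, and with the skeletal muscle mean it was 1.09. With the mesenchyme mean, an alternative added later, it was 0.96. The part of tissue content in this difference was not tested beyond these values.

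The pulmonary valve gave no such separation for Vcam1. Values were 16.3, 38.2, 23.0 and 38.2 in mutant pulmonary libraries 1 to 4, against 22.3, 29.1, 28.3 and 45.8 in wild-type pulmonary libraries 1 to 4. The groups overlapped, where 0.938% of all tested genes had every mutant pulmonary library above every wild-type one. The means were 28.9 ± 11.1 in mutants and 31.4 ± 10.1 in wild type (SD, n = 4 each), and the mutant was higher in 1 of 4 pairs. The difference was -0.15 (SE 0.35, interval -0.89 to 0.59, limma adjusted p = 1.00), and 0.087 without mutant pulmonary library 1. The genotype difference in the pulmonary valve minus that in the aortic valve was -1.18 (SE 0.50, interval -2.23 to -0.14), and it did not pass over all genes (limma adjusted p = 1.00). That value reuses the aortic difference, so it is not independent of how the gene was listed.

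Across the 4 groups, mean Vcam1 was highest in mutant aortic (38.0), then wild-type pulmonary (31.4), mutant pulmonary (28.9) and wild-type aortic valves (18.4). The 3 upper groups differed by less than 1 SD of their libraries. Wild-type pulmonary minus wild-type aortic was 0.77 (SE 0.35, interval 0.03 to 1.51), and mutant pulmonary minus mutant aortic was -0.41 (SE 0.35, interval -1.15 to 0.33). Both use the aortic libraries whose values were known, and both compare batches as well as valves.

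Icam1, the ligand of leukocyte beta 2 integrins, was close to the limit of detection. Mutant aortic libraries 1 to 4 had 13, 2, 26 and 15 recovered reads, and wild-type aortic libraries 7, 5, 0 and 2. Mutant pulmonary libraries had 12, 0, 4 and 26 reads, and wild-type pulmonary libraries 0, 0, 3 and 0. Of the 16 libraries, 5 had no read and 8 had at most 3, the number that a count of 0 allows, which corresponds to 0.351 to 0.695 normalised counts depending on the library. Amplified reads without molecular identifiers are not independent molecules, so such limits cover counting error only.

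In normalised counts, Icam1 averaged 1.83 ± 1.23 in mutant and 0.521 ± 0.430 in wild-type aortic libraries, and 1.29 ± 1.40 in mutant and 0.174 ± 0.347 in wild-type pulmonary libraries (SD, n = 4 each). The groups overlapped in both valves. The difference was 0.82 (SE 0.49, interval -0.22 to 1.87) in the aortic and 0.80 (SE 0.49, interval -0.24 to 1.85) in the pulmonary valve, with limma adjusted p = 1.00 for each. The mutant had the higher value in 5 of 8 litter pairs and the lower in 2, and both were at 0 in 1 pair. Genes were tested if they reached 1 normalised count in 4 or more libraries. Icam1 did so through mutant libraries alone, since no wild-type library exceeded 0.951. Its intervals are therefore a description. The mean difference over both valves was 0.81 (SE 0.35, interval 0.08 to 1.55, limma adjusted p = 1.00). With so few reads the size depended on the method. Over both valves it was 1.13 with a pseudocount of 0.5, 0.28 with 5, 2.42 with edgeR and 2.45 with DESeq2 on recovered reads. In the pulmonary valve edgeR gave 3.06 and DESeq2 3.11, and the limma value was 0.45 without mutant pulmonary library 4. None of these passed the threshold.

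Cxcl12, the chemokine of the axis, was higher in the mutant of 7 of 8 litter pairs, but no difference passed the threshold. Those pairs are not independent, since 3 of the 5 litters gave a pair in each valve. Pair 2 of both valves came from 1 litter and set a muscle-rich mutant against a muscle-poor wild type. It held the largest difference in each valve, 1.725 in the aortic and 2.34 in the pulmonary. Mutant aortic libraries 1 to 4 had 76.1, 67.0, 149.8 and 121, against 107, 19.6, 85.1 and 97.6 in wild-type aortic libraries. The groups overlapped, since wild-type library 1 exceeded mutants 1 and 2. The means were 104 ± 38.9 in mutants and 77.4 ± 39.6 in wild type (SD, n = 4 each), a difference of 0.59 (SE 0.64, interval -0.77 to 1.95, limma adjusted p = 1.00). Without wild-type aortic library 2 it was 0.03.

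In the pulmonary valve Cxcl12 was higher in the mutant of all 4 litter pairs, as were 6.67% of all tested genes. Mutant pulmonary libraries 1 to 4 had 70.9, 92.9, 96.0 and 28.3, against 58.5, 17.5, 71.1 and 7.22 in wild-type pulmonary libraries. The groups overlapped through mutant library 4, which was below wild-type libraries 1 and 3. The means were 72.0 ± 31.2 in mutants and 38.6 ± 31.0 in wild type (SD, n = 4 each), a difference of 1.22 (SE 0.64, interval -0.14 to 2.58, limma adjusted p = 1.00), or 0.62 without wild-type pulmonary library 4. Over both valves the difference was 0.90 (SE 0.45, interval -0.06 to 1.86, limma adjusted p = 1.00), and 4.13% of all tested genes were higher in the mutant of 7 or more of the 8 pairs. Pulmonary minus aortic was -1.21 (SE 0.64) in wild type and -0.58 (SE 0.64) in mutants, neither past the threshold (limma adjusted p = 1.00 each). With litter as a block these were -0.57 in wild type and 0.057 in mutants. In the muscle-poor libraries alone they were -1.87 in wild type (2 libraries per valve) and -2.06 in mutants (1 library per valve). The wild-type value was -0.62 without wild-type pulmonary library 4, and the mutant value was -0.19 without mutant pulmonary library 4.

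Cxcl12 also differed with the tissue content of the libraries, whose part in its genotype difference was not tested beyond the values given here. The 4 lowest values of all 16 libraries, 7.22 to 28.3, came from 4 of the 6 muscle-poor libraries. The other 2, mutant aortic 4 and wild-type aortic 4 from 1 litter, had 121 and 97.6. In the 10 muscle-rich libraries Cxcl12 was 58.5 to 149.8. For the mean over valves, 13 of 14 skeletal muscle markers lay above 0, with a median of 0.70, and none was called. With their mean as a covariate the Cxcl12 difference over both valves was 0.75, not past the threshold (limma adjusted p = 0.956). In the muscle-poor libraries alone, with 1 mutant per valve, the Cxcl12 difference was 1.34.

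**Figure D2:**
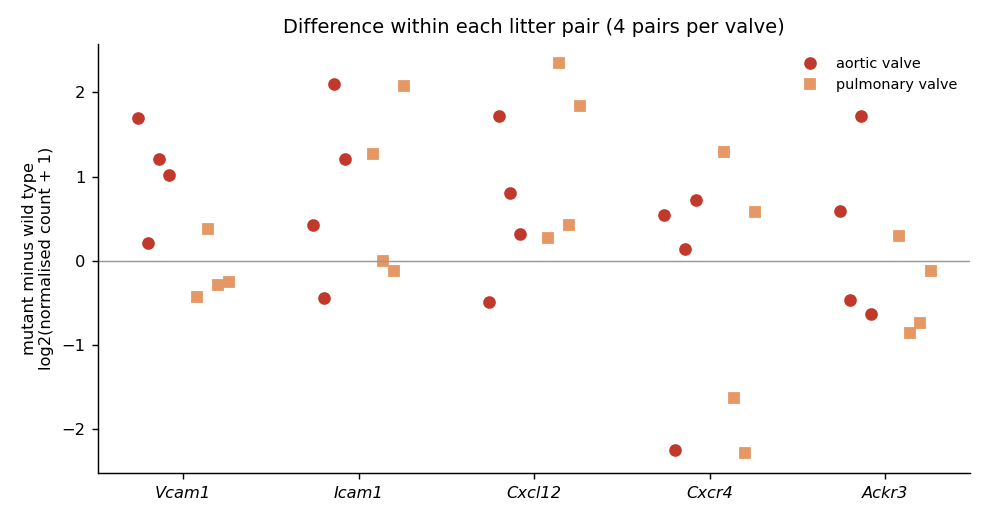
Mutant minus wild type on log2(normalised count + 1) within each litter pair, 4 pairs per valve (circles aortic, squares pulmonary). Vcam1 lies above 0 in 4 of 4 aortic and 1 of 4 pulmonary pairs, and Cxcl12 in 7 of 8 pairs.

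For Cxcr4, the signalling receptor, no genotype difference exceeded the spread between libraries. Mutant aortic libraries 1 to 4 had 9.53, 6.89, 8.07 and 36.7, against 6.25, 36.5, 7.26 and 21.9 in wild-type aortic libraries. Mutant pulmonary libraries had 10.6, 7.25, 5.74 and 28.5, against 3.75, 24.6, 32.0 and 18.7 in wild-type pulmonary libraries. Each group held both low and high libraries, and the mutant was higher in 5 of 8 litter pairs. Pair 2 of each valve set a muscle-rich mutant against a muscle-poor wild type, with differences of -2.25 (aortic) and -1.63 (pulmonary). The other pair with a lower mutant was pulmonary pair 3 (-2.29), where both libraries were muscle-rich. The difference was -0.21 (SE 0.70, interval -1.68 to 1.25) in the aortic and -0.51 (SE 0.70, interval -1.98 to 0.96) in the pulmonary valve, with limma adjusted p = 1.00 for each. The aortic value was 0.22 without wild-type aortic library 2 and -0.73 without mutant aortic library 4. Pulmonary minus aortic was 0.15 (SE 0.70) in wild type and -0.14 (SE 0.70) in mutants, with limma adjusted p = 1.00 for each.

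Ackr3, the scavenger receptor for CXCL12, had the widest spread within groups. Mutant aortic libraries 1 to 4 had 21.5, 56.7, 48.7 and 103.7, against 14.0, 79.0, 14.1 and 161 in wild-type aortic libraries. Mutant pulmonary libraries had 12.4, 49.1, 43.8 and 93.5, against 9.89, 89.9, 73.9 and 102 in wild-type pulmonary libraries. The groups overlapped broadly, and the mutant was higher in 3 of 8 litter pairs. The difference was 0.30 (SE 0.84, interval -1.46 to 2.07) in the aortic and -0.36 (SE 0.84, interval -2.12 to 1.41) in the pulmonary valve, with limma adjusted p = 1.00 for each. The aortic sign turned with edgeR (-0.22) and DESeq2 (-0.21) on recovered reads, and with the endothelial mean as a covariate (-0.20). Pulmonary minus aortic was 0.35 (SE 0.84) in wild type and -0.31 (SE 0.84) in mutants, with limma adjusted p = 1.00 for each.

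**Figure D3:**
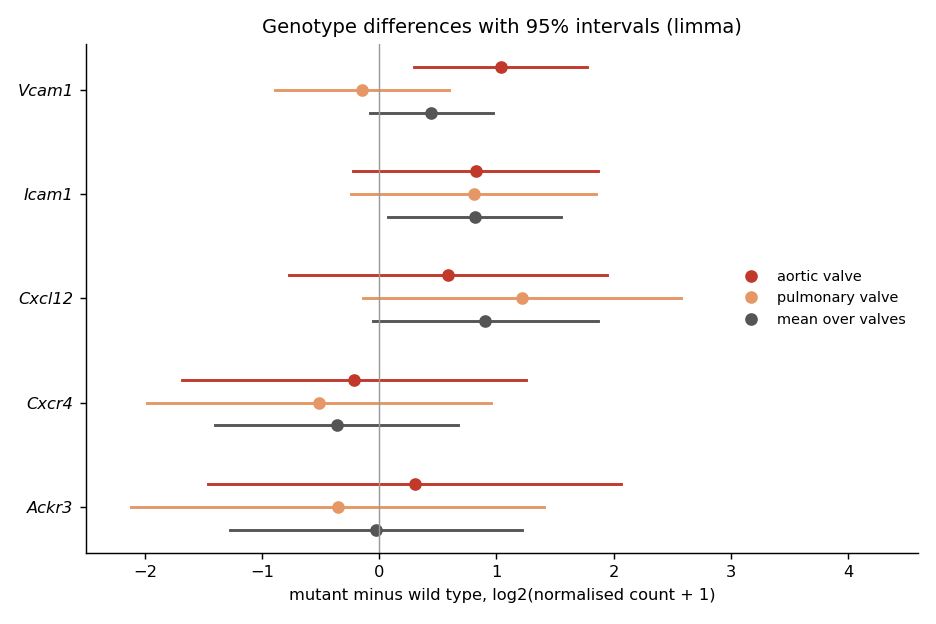
Mutant minus wild type for the 5 genes on log2(normalised count + 1), with 95% intervals from limma (16 libraries), in the aortic valve, the pulmonary valve and the mean over both. The aortic Vcam1 interval runs from 0.29 to 1.78. That difference was known when the gene was listed, so its interval is a description and not a test. The Cxcr4 and Ackr3 intervals all span 0. Icam1 passed the filter for tested genes through mutant libraries alone, so its intervals are a description too.

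No gene of 13963 passed in the aortic, pulmonary or mean comparison with limma, so the background share called was 0% in each. At an unadjusted limma p under 0.05 lay 196 genes (1.4%) in the aortic, 437 (3.13%) in the pulmonary and 389 (2.79%) in the mean comparison. edgeR called 0 in all 3. DESeq2 called 0 in the aortic, 2 in the pulmonary and 5 in the mean comparison, none of them a member. The 5 included Jag1 (-1.76, DESeq2 adjusted p = 0.0134) and Cd74 (DESeq2 adjusted p = 0.0402). With limma not even Jag1, the gene that checks the labels, passed. The genotype-by-valve comparison and both valve comparisons also called 0 genes with limma, edgeR and DESeq2, with 264 (1.89%), 153 (1.1%, wild type) and 67 (0.48%, mutant) at an unadjusted limma p under 0.05. The labels do not tie libraries to embryos. Where 1 embryo gave both valves, p-values of the mean over valves may be too small. Those of the genotype-by-valve and valve comparisons may then be too large. The p-values within 1 valve measure only the spread between these libraries.

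Both receptors were higher in muscle-poor libraries. Ackr3 was 79.0 to 161 in the 6 muscle-poor libraries and 9.89 to 73.9 in the other 10, with no overlap, as for 2.6% of all tested genes in that direction. Within the 10, it was 43.8 to 73.9 in the 5 libraries with middle Tbx20 and 9.89 to 21.5 in the 5 with Tbx20 of 98.0 to 123. The summed endothelial markers split the same way, at 1099 to 1794 in the middle 5 and 330 to 555 in the low 5. The middle set was mutant aortic 2 and 3, mutant pulmonary 2 and 3 and wild-type pulmonary 3. Whether Ackr3 goes with cushion content, endothelial content or genotype here was not tested. Cxcr4 was 18.7 to 36.7 in the same 6 libraries and at most 10.6 in 9 of the other 10, the exception being wild-type pulmonary library 3 at 32.0. The 5 libraries with middle Tbx20 were intermediate for Ackr3, while 4 of them were at 5.74 to 8.07 for Cxcr4. These library sets were defined from the data and no test was made between them.

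**Figure D4:**
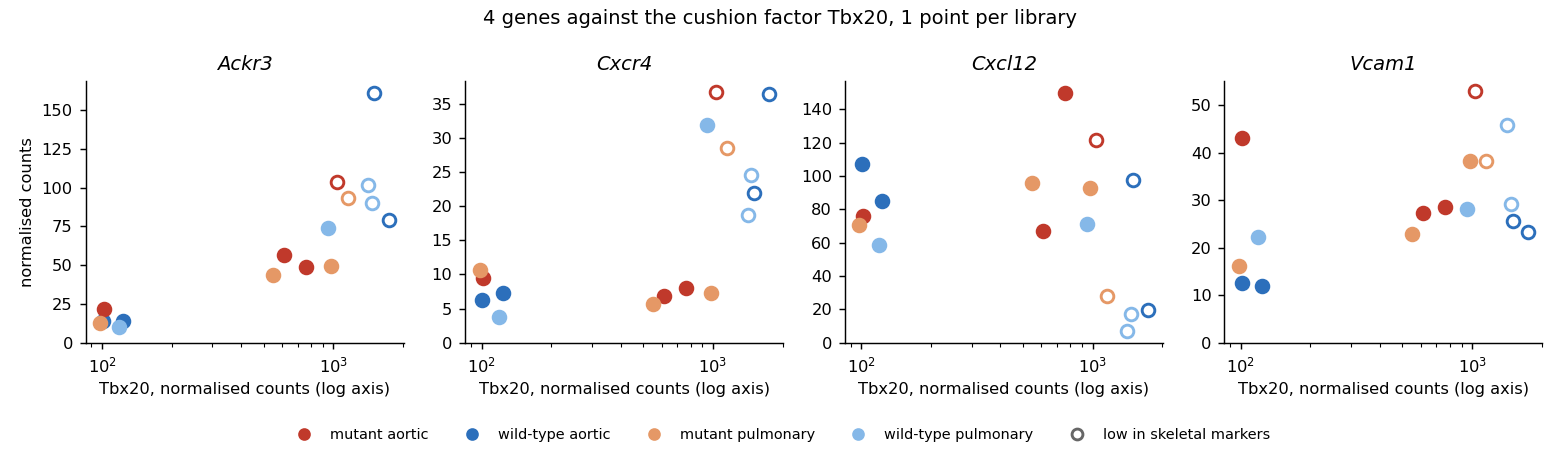
Normalised counts of Ackr3, Cxcr4, Cxcl12 and Vcam1 against Tbx20 (log axis), 1 point per library, with open points for the 6 muscle-poor libraries. Ackr3 is 9.89 to 21.5 at Tbx20 of 98.0 to 123, 43.8 to 73.9 at 549 to 976 and 79.0 to 161 at 1032 to 1744, and the 4 lowest Cxcl12 values lie at the high end of Tbx20.

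The ligand and its receptors stood in different order in different libraries. Per kilobase, Cxcl12 was below Cxcr4 and below Ackr3 in all 6 muscle-poor libraries. In the 10 others it was above Cxcr4 in 9 and above Ackr3 in 6. Both orders rest on merged exon lengths of 8176 bases for Cxcl12, 1808 for Cxcr4 and 3348 for Ackr3. They could differ if short Cxcl12 isoforms prevail, which was not tested. Vcam1 was 23.3 to 53.1 in the 6 and 11.9 to 43.2 in the 10, which overlapped.

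The genes most like each member were ranked by Pearson r on the log2 scale over 16 libraries, among 9983 or more genes with a mean of at least 3 on that scale. The points share library, depth and tissue mix and fall into the sets above, so r is a description with no p, and r within the 10 muscle-rich and the 6 muscle-poor libraries stands beside it. Ackr3 was most like the cardiac transcription factor gene Gata4 (r = 0.98, rho = 0.97; r = 0.98 in the 10 and 0.63 in the 6), followed by the cadherin gene Dchs1 (r = 0.98, rho = 0.93, with 0.97 in the 10 and 0.49 in the 6) and Pcnx (r = 0.98, rho = 0.97, with 0.97 in the 10 and 0.63 in the 6). Cxcr4 was most like Zdhhc8 (r = 0.90, rho = 0.75; 0.87 in the 10 and 0.21 in the 6), Khdc4 (r = 0.89, rho = 0.84, with 0.67 in the 10 and 0.85 in the 6) and the endoplasmic reticulum protein gene Wfs1 (r = 0.89, rho = 0.82, with 0.76 in the 10 and 0.41 in the 6).

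Vcam1 was most like the matrix protein gene Tgfbi (r = 0.83, rho = 0.80; 0.80 in the 10 and 0.70 in the 6), the membrane protein gene Pmp22 (r = 0.82, rho = 0.79, with 0.78 in the 10 and 0.74 in the 6) and Inafm2 (r = 0.82, rho = 0.69, with 0.88 in the 10 and 0.45 in the 6). Cxcl12 was most like the scaffold protein gene Magi3 (r = 0.86, rho = 0.82; 0.82 in the 10 and 0.80 in the 6), Trappc12 (r = 0.82, rho = 0.65, with 0.62 in the 10 and 0.75 in the 6) and the predicted gene Gm26718 (r = 0.80, rho = 0.48, with 0.18 in the 10 and 0.78 in the 6). Icam1 was most like Mterf3 (r = 0.78, rho = 0.76, with 0.76 in the 10 and 0.92 in the 6), a gene given by identifier as ENSMUSG00000079834 (r = 0.74, rho = 0.76, with 0.74 in the 10 and 0.80 in the 6) and Rad17 (r = 0.73, rho = 0.67, with 0.53 in the 10 and 0.94 in the 6), each with few Icam1 reads behind it. Among the members themselves the highest r was 0.75 between Cxcr4 and Ackr3 (rho = 0.73; 0.47 in the 10 and -0.48 in the 6). Vcam1 and Ackr3 had r = 0.63 over 16 libraries, 0.60 in the 10 and -0.04 in the 6. Cxcl12 and Cxcr4 had r = -0.43 over 16 libraries, -0.09 in the 10 and 0.41 in the 6.

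Of the listed integrin chains that bind VCAM1 or ICAM1, 5 of 8 were measured and none was called in any comparison. The alpha 4 chain gene Itga4 averaged 36.5 ± 22.9 in mutant and 49.1 ± 19.9 in wild-type aortic libraries, and 35.8 ± 6.20 in mutant and 53.4 ± 53.7 in wild-type pulmonary libraries (SD, n = 4 each). Itga9, whose chain also binds VCAM1, averaged 160.3 ± 125 in mutant and 108 ± 80.6 in wild-type aortic libraries, and 99.0 ± 60.5 in mutant and 120.3 ± 68.4 in wild-type pulmonary libraries. The leukocyte chain genes were low, with Itgal at no more than 16.4 and Itgam at no more than 19.4 in any library. The median aortic difference of the 5 was 0.15, beside 0.02 for all genes.

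Other endothelial adhesion genes had 9 of 12 measured members above 0 in the aortic valve, with a median of 0.46 beside 0.02 for all genes, and 4 of 12 above 0 in the pulmonary valve, with a median of -0.11 beside 0.01. None of the 12 was called in either valve. Alcam, an adhesion molecule of the same superfamily, averaged 69.6 ± 34.4 in mutant and 39.1 ± 12.9 in wild-type aortic libraries, and 44.5 ± 12.2 in mutant and 47.4 ± 16.2 in wild-type pulmonary libraries (SD, n = 4 each). Sele, which encodes the endothelial selectin, averaged 5.95 ± 8.37 in mutant and 0.740 ± 0.772 in wild-type aortic libraries, and 3.14 ± 3.93 in mutant and 1.87 ± 2.37 in wild-type pulmonary libraries. Jam2, a junctional adhesion molecule, averaged 94.8 ± 60.0 in mutant and 64.2 ± 57.2 in wild-type aortic libraries, and 88.1 ± 61.6 in mutant and 78.4 ± 48.9 in wild-type pulmonary libraries. Jam3, of the same family, averaged 15.4 ± 3.59 in mutant and 25.6 ± 5.74 in wild-type aortic libraries, and 23.1 ± 7.91 in mutant and 27.4 ± 7.80 in wild-type pulmonary libraries. Of the 12, 3 are also among the endothelial markers, whose aortic median was 0.52, and the part of endothelial content in these values was not tested.

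The 15 factors that act on Vcam1 and Icam1 transcription through NF-kB and interferon signals were all measured, and none was called. In the aortic valve 9 lay above 0 and 6 below (median 0.08, beside 0.02 for all genes), and in the pulmonary valve 6 above and 9 below (median -0.10, beside 0.01). Ikbkg, the regulatory subunit of the IKK complex, averaged 20.7 ± 4.82 in mutant and 32.9 ± 3.45 in wild-type pulmonary libraries, against 29.9 ± 10.2 in mutant and 24.4 ± 5.14 in wild-type aortic libraries (SD, n = 4 each). Irf1, an interferon-responsive factor, averaged 4.20 ± 1.40 in mutant and 6.36 ± 2.33 in wild-type aortic libraries, and 4.68 ± 1.81 in mutant and 4.56 ± 1.27 in wild-type pulmonary libraries. The NF-kB-inducing kinase gene Map3k14 averaged 4.53 ± 2.59 in mutant and 4.53 ± 0.892 in wild-type aortic libraries, and 4.51 ± 1.49 in mutant and 7.76 ± 2.44 in wild-type pulmonary libraries.

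Of the listed genes of the CXCL12 pathway, 14 of 18 were measured and none was called with limma. For the mean over valves 7 lay above 0 and 7 below, with a median of 0.00 beside 0.01 for all genes. Cd74, the invariant chain, which is also a receptor for the CXCR4 ligand MIF, averaged 0.833 ± 0.787 in mutant and 6.20 ± 6.83 in wild-type aortic libraries, and 0.971 ± 0.721 in mutant and 6.73 ± 7.21 in wild-type pulmonary libraries (SD, n = 4 each). Its difference over both valves was -1.66 (SE 0.44, limma adjusted p = 1.00; DESeq2 adjusted p = 0.0402). Rgs16, which dampens signalling through G proteins, averaged 10.4 ± 3.92 in mutant aortic libraries and ranged over 2.98 to 26.2 in wild-type aortic libraries, with a mean of 12.4. It averaged 11.4 ± 2.41 in mutant and 5.51 ± 4.16 in wild-type pulmonary libraries. The arrestin gene Arrb1 averaged 66.1 ± 35.9 in mutant and 64.5 ± 22.8 in wild-type aortic libraries, and 56.7 ± 14.3 in mutant and 111 ± 62.5 in wild-type pulmonary libraries. Hmgb1, whose protein binds CXCL12, ranged over 176 to 413 in mutant and 235 to 498 in wild-type aortic libraries, and over 127 to 281 in mutant and 191 to 386 in wild-type pulmonary libraries.

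Other chemokines and their receptors were low, with 14 of 34 listed genes measured and none called. In the pulmonary valve 10 lay above 0 and 4 below (median 0.23), and in the aortic valve 7 and 7 (median -0.03). Ccl2, a chemoattractant of monocytes, ranged over 0.157 to 64.7 in mutant and 0.445 to 5.09 in wild-type aortic libraries, and over 1.17 to 10.1 in mutant and 0 to 6.02 in wild-type pulmonary libraries. Cx3cr1, a receptor of macrophages, averaged 5.62 ± 2.08 in mutant and 8.18 ± 4.51 in wild-type aortic libraries, and 3.29 ± 0.525 in mutant and 4.76 ± 0.507 in wild-type pulmonary libraries (SD, n = 4 each). Macrophage and leukocyte markers (15 of 16 measured) summed to 73.0 to 133 in mutant and 66.6 to 170 in wild-type aortic libraries, and to 82.7 to 125 in mutant and 66.7 to 110 in wild-type pulmonary libraries.

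**Figure D5:**
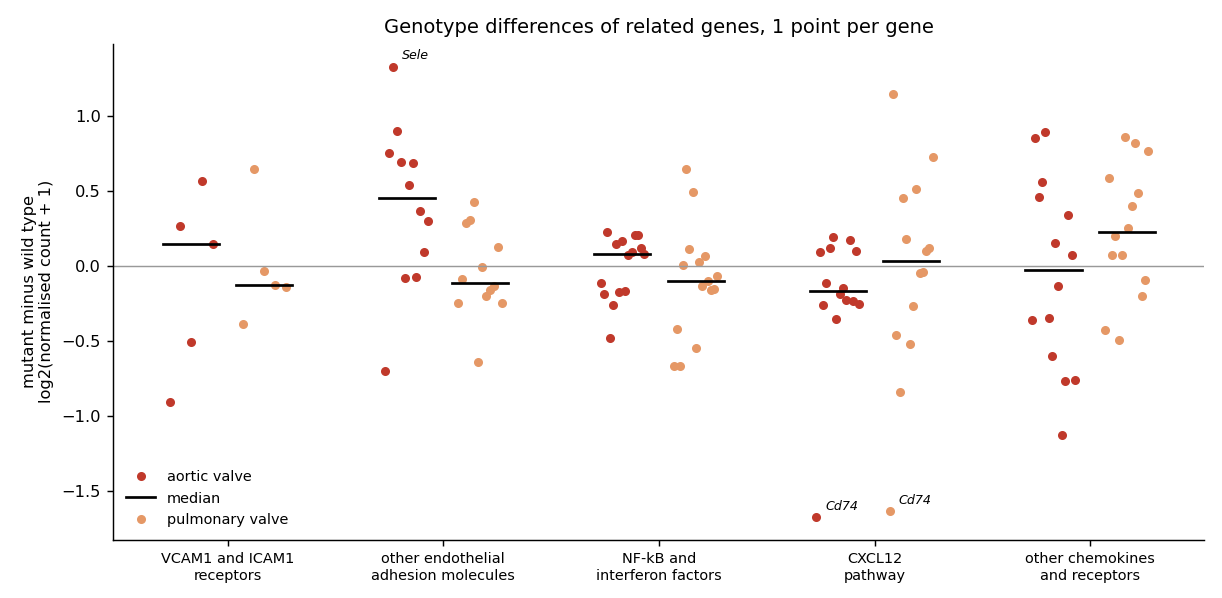
Mutant minus wild type on log2(normalised count + 1) for each measured gene of the 5 related lists, in the aortic and the pulmonary valve, with a black line at each list's median. The adhesion list has a median of 0.46 in the aortic and -0.11 in the pulmonary valve, and Cd74 is the lowest point in both.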

How the data were processed

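RNA was measured in 16 libraries of valve tissue. Per the submitters' processing notes, reads on build GRCm38 were handled with RSEM 1.2.3, and FastQC, cutadapt 1.6 and CASAVA 1.8.2 were also named. Per the labels' protocols, RNA was amplified with an Ovation kit before library preparation. The table the authors deposited holds a normalised signal with 1 column per library. Its values are whole multiples of 1 step per library, and 100% gave whole reads within 0.05 read. They differed from TMM-scaled values of those reads, recomputed with edgeR 4.0.16, by at most 4.88e-09%. The sources used here do not state the scaling or any gene filter. RSEM splits reads between gene copies, so values of near-identical genes are uncertain.

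Symbols were found for 13780 of 13964 identifiers. The main test was limma 3.58.1 (R 4.3.3) on log2(value + 1) with a mean-variance trend and no litter block, for genes that reached 1 in 4 or more libraries. edgeR's quasi-likelihood test and DESeq2 1.42.0 on recovered reads were alternatives, beside other pseudocounts (0.5 and 5), filters, quantile scaling, marker covariates and leaving out libraries. The scripts were tested on simulated data. The members, lists and comparisons were chosen with earlier results of these data known. Named genes were the members, Jag1, the 3 genes most like each member and up to 4 of each list with the smallest p of the mean over valves.

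The labels give each library a litter, and same-numbered mutant and wild-type libraries of a valve share it, so the numbers pair them. Deviations from group means correlated within pairs at 0.48, 0.01, 0.20 and 0.64 in the aortic and at 0.49, -0.03, 0.07 and 0.45 in the pulmonary valve. Replicates of a group come from 4 different litters, and no replicate pair agreed within sampling noise (lowest chi-square per gene 24.1).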

Additional observations from a re-analysis of the deposited data

Results flagged for a closer look

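Among 20 groups of 4 libraries (5 genes in 4 groups), 2 held a library far from the other 3, where chance gives about 1 in 20. Cxcr4 was 36.7 in mutant aortic library 4, against 6.89 to 9.53 in the other 3 mutant aortic libraries. This is the 1 muscle-poor mutant aortic library, and high Cxcr4 was shared by the other 5 such libraries (18.7 to 28.5 in 4 and 36.5 in wild-type aortic library 2). Icam1 was 0.695 in wild-type pulmonary library 3, which is 3 recovered reads, against 0 in the other 3 wild-type pulmonary libraries, a difference that counting error covers at this depth.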

How the results depend on the processing

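No member passed the threshold under any alternative (smallest limma adjusted p = 0.519). Of 30 member differences, 13 kept their sign under every alternative run, among them Cxcl12 over both valves (0.65 to 1.34, and 0.61 to 1.13 without 1 library). Vcam1 in the aortic valve (0.89 to 1.09, and 0.86 to 1.21 without 1 library) is another, but its groups do not overlap, which fixes the sign when libraries are left out. In the 6 muscle-poor libraries alone, an alternative added after seeing the data with 1 mutant per valve, signs turned for Cxcr4 (0.36 aortic, 0.40 pulmonary, 0.38 mean, 0.033 genotype by valve, -0.39 wild-type pulmonary minus aortic), Ackr3 (-0.12 aortic, 0.088 genotype by valve, -0.24 wild-type pulmonary minus aortic), Vcam1 (0.062 pulmonary), Icam1 (1.06 genotype by valve, 0.43 mutant pulmonary minus aortic) and Cxcl12 (-0.19 genotype by valve). With the skeletal muscle mean as a covariate they turned for Ackr3 (0.027 pulmonary, 0.24 mean), Icam1 (0.010 genotype by valve) and Cxcr4 (-0.024 wild-type valves). With the endothelial mean they turned for Ackr3 (-0.20 aortic, 0.012 mutant valves), Icam1 (0.012 genotype by valve) and Cxcr4 (0.069 mutant valves). The mesenchyme mean, also added later, turned Cxcr4 (-0.10) and Ackr3 (-0.10) between wild-type valves. Icam1 genotype by valve was 0.054 with a pseudocount of 0.5, 1.28 with edgeR and 1.31 with DESeq2, and aortic Ackr3 was -0.22 with edgeR and -0.21 with DESeq2. The cause was not tested in any of these.

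With 1 library left out at a time, these differences changed sign. Cxcr4 (aortic) ranged over -0.73 to 0.22 and turned without mutant aortic 2 or wild-type aortic 2. Cxcr4 (genotype by valve) ranged over -0.90 to 0.21 and turned without mutant aortic 4 or wild-type aortic 1 or wild-type pulmonary 3. Cxcr4 (wild-type valves) ranged over -0.20 to 0.76 and turned without wild-type aortic 1 or 3 or wild-type pulmonary 2 or 3. Cxcr4 (mutant valves) ranged over -0.59 to 0.37 and turned without mutant aortic 4 or mutant pulmonary 2 or 3. Ackr3 (aortic) ranged over -0.19 to 0.96 and turned without mutant aortic 4 or wild-type aortic 1 or 3. Ackr3 (pulmonary) ranged over -1.11 to 0.18 and turned without mutant pulmonary 1. Ackr3 (mean) ranged over -0.41 to 0.30 and turned without mutant aortic 1 or mutant pulmonary 1 or wild-type aortic 2 or 4 or wild-type pulmonary 2 or 3 or 4. Ackr3 (wild-type valves) ranged over -0.14 to 1.10 and turned without wild-type aortic 1 or 3. Ackr3 (mutant valves) ranged over -0.71 to 0.23 and turned without mutant aortic 4 or mutant pulmonary 1. Vcam1 (pulmonary) ranged over -0.31 to 0.087 and turned without mutant pulmonary 1 or wild-type pulmonary 4. Icam1 (genotype by valve) ranged over -0.38 to 0.31 and turned without mutant aortic 3 or 4 or mutant pulmonary 2 or 3 or wild-type aortic 3 or 4 or wild-type pulmonary 3.

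With litter as a replicate block, no member was called, Cxcl12 between mutant valves was 0.057, and 1 gene passed for the mean over valves (Gm9825, adjusted p = 0.0414), named after its values were seen. The block changed no other call. For the mean over valves the number called was 0 as reported, 5 with DESeq2, 3 with the endothelial mean, 2 with the skeletal muscle mean, 2 with the mesenchyme mean, 3 in the 6 muscle-poor libraries and 0 to 3 without 1 library (3 without wild-type aortic library 4, 2 without wild-type pulmonary library 2). In the pulmonary valve it was 2 with DESeq2 and 1 in those 6 libraries, and in the aortic valve 3 in those 6 and 0 to 2 without 1 library (2 without wild-type aortic library 4). No fit with only the groups compared exists for the mean and the genotype-by-valve difference, which use all 4 groups. Depth limits Icam1, with 0 to 26 reads per library.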
